A study of Mus musculus with 8 samples.

Results

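Podocyte genes were followed in RNA from whole mouse kidneys at E13.5, an embryonic day in midgestation, over 8 genes that build the glomerular filter or direct its formation: Nphs1, Magi2, Podxl, Clic5, Ptpro, Synpo, Foxc2 and Lmx1b. Their probes were found by the RefSeq accession that the scanner files give for each spot, with control spots left out. The 8 genes, of 17305 named on the array, had 13 of its 41174 probes, and all 13 were among the 39520 kept by a filter on dim probes. Synpo had 3 probes, Podxl, Ptpro and Clic5 had 2 each, and the others had 1 each. When a gene had several probes, the brightest stood for it. For the 8 podocyte genes, the others were read beside it. No podocyte gene passed the test between the RNA labelled mutant and the RNA labelled wild type. Every one of the 8 was flagged as well above background on most arrays, as were 79.2% to 97.1% of all spots of a channel.

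The kidneys labelled mutant carried the genotype UB HDAC1, 2-/-, a loss of both histone deacetylases in the ureteric bud (UB), and the kidneys labelled wild type carried no deletion. Both groups were E13.5 embryos of a CD1 C57BL/6 mix. Each of 4 biological replicates paired 1 RNA of each label, and each pair was hybridised on 2 Agilent two-colour arrays with the Cy5 and Cy3 dyes exchanged, so 8 arrays gave 4 values. The driver of the deletion, the sex of the embryos and any pooling of embryos are not given in the sources used here.

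The array check of the labels was not clean. Hdac2, a deleted gene, had log2 ratios of labelled mutant over labelled wild type of 0.45, 0.40, 0.61 and -0.43 in replicates 1 to 4, with a mean of 0.26 ± 0.47 (SD, n = 4) and an adjusted p of 0.807 by limma's test with Benjamini-Hochberg adjustment. Whether its probe lies in the deleted part is not given in the sources used here. The labels place the deletion in the ureteric bud, and the RNA is of whole kidneys, so it also holds RNA of cells without the deletion. The Hdac2 ratio therefore cannot decide whether the labels are right. In the authors' deposited table of selected features, 309 of 309 entries with a single probe had the sign opposite to the labelled ratio, and that table states no direction. Every direction below is therefore that of the labels, and every sign would turn if the labels of the channels were exchanged.

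Podocytes are the epithelial cells on the outer face of the glomerular capillaries. Their interlocking foot processes are bridged by the slit diaphragm, a sheet of adhesion proteins that holds back plasma proteins. They arise from the proximal end of the newly formed nephron, under transcription factors such as Wt1, Foxc2 and Lmx1b, and E13.5 in the mouse is an early point of glomerular development. The ureteric bud, where the labels place the deletion, forms the collecting ducts and not the podocytes.

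Promoter windows from the RefSeq tables, build GRCm38.p6, matched 5 of the 8 genes. Those of Nphs1, Ptpro and Lmx1b are printed because they span the range seen in motif content, from a window with no match to the one with the most matches. Each is the 250 bases before the start of the gene, read 5′ to 3′ on its own strand. Capitals mark matches on either strand to a forkhead core (TAAACA), a homeodomain core (TAATTA), an E-box (CANNTG) or a zinc finger core of the Wt1/Egr kind (GTGGGAG). No match overlapped another.
Nphs1, chr7:30459808-30460057, plus strand: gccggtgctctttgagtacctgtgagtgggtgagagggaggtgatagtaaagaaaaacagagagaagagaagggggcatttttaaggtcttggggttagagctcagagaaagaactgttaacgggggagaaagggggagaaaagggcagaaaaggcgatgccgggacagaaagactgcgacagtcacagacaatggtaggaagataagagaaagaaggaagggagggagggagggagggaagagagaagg
Ptpro, chr6:137252049-137252298, plus strand: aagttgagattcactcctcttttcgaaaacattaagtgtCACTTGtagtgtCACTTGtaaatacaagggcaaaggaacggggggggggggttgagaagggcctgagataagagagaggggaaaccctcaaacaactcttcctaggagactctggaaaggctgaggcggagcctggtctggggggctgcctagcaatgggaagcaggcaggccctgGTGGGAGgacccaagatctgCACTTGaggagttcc
Lmx1b, chr2:33641099-33641348, minus strand: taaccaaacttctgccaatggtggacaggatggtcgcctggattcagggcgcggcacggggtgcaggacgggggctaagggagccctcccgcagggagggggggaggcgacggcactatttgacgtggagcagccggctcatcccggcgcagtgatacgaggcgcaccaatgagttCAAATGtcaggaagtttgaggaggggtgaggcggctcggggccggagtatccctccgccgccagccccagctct
The Nphs1 window held none of these letters, and the Clic5 window at chr17:44188322-44188571 held none either. The Ptpro window held 3 E-boxes and 1 GTGGGAG, and the Lmx1b window held 1 E-box. Magi2 had 2 starts, with 1 E-box in the window at chr5:19226796-19227045, and 1 E-box and 1 TAATTA in the window at chr5:19907268-19907517. Among all 32851 windows of the same length, 66.2% held an E-box, 12% TAAACA, 8.25% GTGGGAG and 4.84% TAATTA. An E-box in 4 of the 6 windows is close to the share in all promoters. The base composition differed widely among the genes, with 50.8% G or C for Nphs1, 65.2% for Lmx1b, and 72% and 41.2% for the 2 starts of Magi2, against a median of 52.4% over all windows.

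All 8 podocyte genes gave a signal above background at E13.5 in RNA of both labels. Each probe was read on 16 spots, 8 with the RNA labelled mutant and 8 with the RNA labelled wild type, and the scanner software flags a spot that is well above background. Foxc2, a forkhead factor that acts early in glomerular formation, had the flag on 16 of 16 spots, with a median signal 328 times its local background and a range of 130 to 602. The brightest probe of Synpo, which encodes the actin-associated protein synaptopodin, had it on 16 of 16 spots at 45.5 to 135 times the background. Magi2, which encodes a scaffold protein of the slit diaphragm, lay at 12.5 to 52.6 times the background and was flagged on 16 of 16 spots. Brightness depends on the probe, so these ranges do not order the genes by their level.

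Podxl, Clic5, Lmx1b and Ptpro were flagged on all 16 spots by their brightest probes, at smaller multiples of the background. Podxl encodes podocalyxin, the charged sialomucin of the podocyte surface, and its brightest probe gave 4.18 to 21.3 times the background. Clic5, a protein of the ezrin and podocalyxin complex at the foot process membrane, gave 5.81 to 18.1 times the background. Lmx1b, a LIM homeodomain factor that controls podocyte and basement membrane genes, gave 6.47 to 17.9 times the background. Ptpro, the receptor tyrosine phosphatase of the podocyte apical membrane also known as GLEPP1, gave 4.53 to 8.86 times the background.

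Nphs1, which encodes nephrin, the adhesion protein of the slit diaphragm, was dimmer. It was flagged on 15 of 16 spots, at 3.41 to 9.62 times the background with a median of 4.84. Its median spot signal ran from 131 to 308 in the RNA labelled mutant and from 109 to 295 in the RNA labelled wild type, over local backgrounds of 27 to 39. The spot without the flag was the RNA labelled wild type in Cy3 of replicate 2, at a signal of 109. The dimmer probes of Synpo (flagged on 15 of 16 spots, from 2.50 times the background) and Clic5 (14 of 16 spots, from 1.59 times the background) also missed the flag on arrays of replicate 2 and on no other. All 4 spots without a flag among the 208 podocyte spots therefore came from 1 replicate.

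The flag is a lenient bound. Between 79.2% and 97.1% of all spots of a channel carried it, so the flag alone sets a podocyte probe little apart from the array, and an array of replicate 2 had the lowest shares, 82.1% for the labelled mutant and 79.2% for the labelled wild type. These data hold 1 stage, so they give the level at E13.5 and no onset over time.

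**Figure D1:**
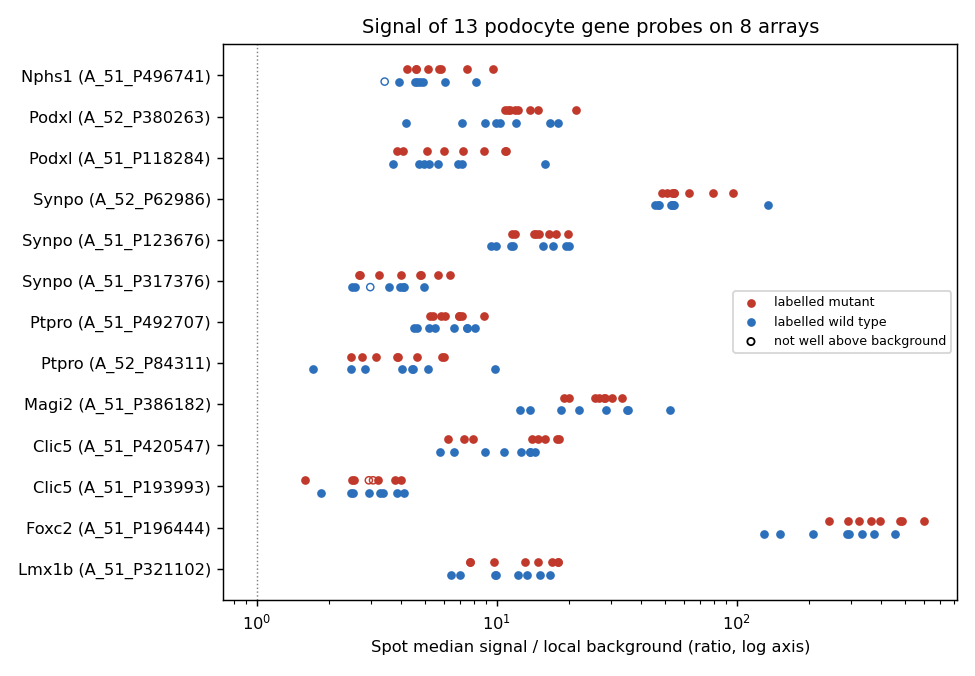
Spot signal over local background (log axis) for the 13 podocyte probes, with 16 spots each, coloured by the label of the RNA and with open symbols where a spot is not flagged as well above background. Foxc2 lies at 130 to 602, Nphs1 at 3.41 to 9.62, and all 4 spots without a flag are on arrays of replicate 2.

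The comparison between the labels asks whether podocyte gene expression differs in kidneys whose ureteric bud lacks both enzymes. Whole kidney RNA does not show which cells gave the signal of these genes, podocyte precursors or others. A change in the number of such cells and a change of the RNA in each of them cannot be told apart. No podocyte gene passed the adjusted threshold of 0.05 (limma, Benjamini-Hochberg over 39520 probes), beside 1 of 39520 probes (0.00253%), a probe of Mia with a log2 ratio of 1.55 and an adjusted p of 0.0456. Only 1 podocyte gene, Magi2, had an unadjusted p under 0.05 by limma, against 5.93% of all probes. Under median centring the 1 gene was Foxc2 in place of Magi2, where 8.1% of all probes were higher and 1.56% lower. The ratios were small, above 0 for 3 of the 8 genes and below 0 for 5, where 45.4% of all probes lay above 0 and 54.6% below. The median log2 ratio of the 8 genes was -0.03 against -0.01 for all probes, and the median size of the ratio, sign ignored, was 0.081 against 0.084. The spread between replicates was also ordinary, with a median SD of 0.131 for the 8 genes and 0.179 for all probes. None of the 8 genes had levels that separated the 4 RNAs of each label, which 1.78% of all probes did (0.986% with the labelled mutant above and 0.795% with it below).

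**Figure D2:**
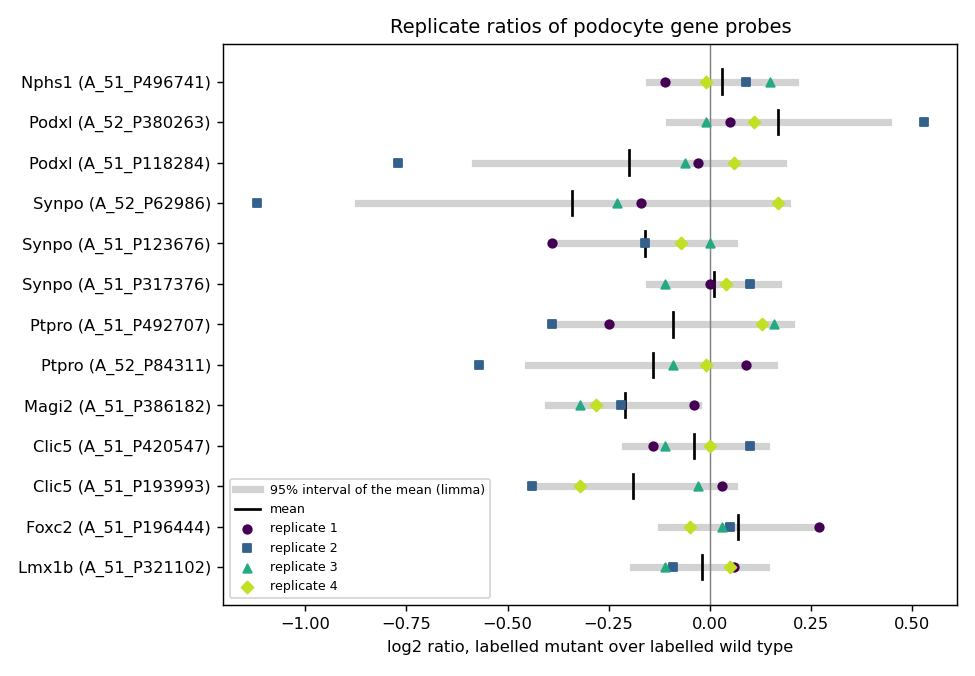
Log2 ratio of labelled mutant over labelled wild type for each of the 13 podocyte probes in each of the 4 replicates, both dye orientations averaged, with the mean and its 95% confidence interval. Means lie between -0.34 (Synpo) and 0.17 (Podxl), and the most distant points, -1.12 for Synpo and -0.77 for the dimmer Podxl probe, are both of replicate 2.

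At the slit diaphragm, nephrin differed between the labels by less than its spread between replicates, and Magi2 had a ratio below 0 that did not pass the test. The log2 levels of Nphs1, on the scale normalized across arrays, were 7.62, 8.01, 7.97 and 7.96 in the RNA labelled mutant of replicates 1 to 4. They were 7.74, 7.91, 7.83 and 7.97 in the partner RNA labelled wild type. The lowest value was in replicate 1 labelled mutant, and the groups overlapped. The log2 ratios were -0.11, 0.09, 0.15 and -0.01, with a mean of 0.03 ± 0.12 (SD, n = 4) and a 95% confidence interval of -0.15 to 0.21 (adjusted p = 0.894 by limma, exact sign-flip p = 0.75). The scanner's own log ratio of Nphs1 gave -0.03, 0.53, 0.08 and 0.02, and the 0.53 came from replicate 2.

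The ratio of Magi2 lay below 0 in 4 of 4 replicates, as for 6.03% of all probes. Its levels were 9.90, 9.66, 9.71 and 9.89 in the RNA labelled mutant and 9.94, 9.89, 10.03 and 10.17 in the partner RNA labelled wild type. The highest labelled mutant value, in replicate 1, exceeded the lowest labelled wild type value, in replicate 2, so the groups overlapped narrowly. The ratios were -0.04, -0.22, -0.32 and -0.28, with a mean of -0.21 ± 0.12 (SD, n = 4) and an interval of -0.40 to -0.03. The unadjusted p was 0.0292 and the adjusted p 0.795 by limma, and the exact two-sided sign-flip test gave the smallest p that 4 replicates allow, which lies above 0.05. The scanner's log ratio gave a mean of -0.27 ± 0.07. By dye orientation, the loess ratios had means of -0.48 with the labelled mutant in Cy5 and 0.05 with it in Cy3, and the scanner's ratios -0.39 and -0.14. When the arrays entered singly with replicate number as a block, the unadjusted p of Magi2 was 0.0752 by limma, so it no longer lay under 0.05. Under median centring Magi2 was at -0.14, with an unadjusted p of 0.293 by limma. The part of the dye in this ratio was not tested.

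On the podocyte surface, the probes of Podxl disagreed in sign. The brightest had levels of 8.87, 8.74, 9.06 and 9.15 in the RNA labelled mutant and 8.82, 8.21, 9.07 and 9.03 in the partner RNA labelled wild type. The low value of 8.21 was replicate 2, and the groups overlapped. Its ratios were 0.05, 0.53, -0.01 and 0.11, with a mean of 0.17 ± 0.25 (SD, n = 4), an interval of -0.10 to 0.44 and an adjusted p of 0.807 by limma. The dimmer probe gave -0.03, -0.77, -0.06 and 0.06, with a mean of -0.20 ± 0.38. Replicate 2 set both means: its wild type RNA was the lowest of the 4 by the brighter probe and, at 9.01 against 7.90 to 8.25, the highest by the dimmer one. Without replicate 2 the brighter probe gave 0.05. On the dimmer probe, the array of replicate 2 with the labelled mutant in Cy5 gave -1.51 and the dye-swapped array of the same RNAs gave -0.03.

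Clic5 differed between the labels by less than its spread between replicates. Its levels were 8.97, 9.13, 8.71 and 8.61 in the RNA labelled mutant and 9.11, 9.03, 8.81 and 8.61 in the partner RNA labelled wild type. The RNAs of replicates 3 and 4 were the lower ones under both labels, so the replicates differed more than the labels did. The ratios were -0.14, 0.10, -0.11 and 0.00, with a mean of -0.04 ± 0.11 (SD, n = 4) and an adjusted p of 0.871 by limma. The dimmer probe, near the background, gave 0.03, -0.44, -0.03 and -0.32.

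The ratio of Ptpro split by replicate. Its levels were 7.78, 7.85, 8.38 and 8.37 in the RNA labelled mutant and 8.03, 8.24, 8.21 and 8.24 in the partner RNA labelled wild type. Replicates 1 and 2 lay below their partners and replicates 3 and 4 above them, with ratios of -0.25, -0.39, 0.16 and 0.13. The mean was -0.09 ± 0.28 (SD, n = 4), with an interval of -0.38 to 0.20 and an adjusted p of 0.817 by limma. Replicates 1 and 2 shared a slide and replicates 3 and 4 shared the other, which gives means of -0.32 and 0.15 within the slides. The part of the slide was not tested. The dimmer Ptpro probe did not split this way, with 0.09, -0.57, -0.09 and -0.01.

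Synpo had the largest ratio among the 8 genes and also the largest spread. Its levels were 10.77, 11.05, 11.01 and 10.96 in the RNA labelled mutant and 10.94, 12.17, 11.24 and 10.79 in the partner RNA labelled wild type. The value of 12.17, in replicate 2, was the highest of the wild type RNAs, the others lying at 10.79 to 11.24. The ratios were -0.17, -1.12, -0.23 and 0.17, with a mean of -0.34 ± 0.55 (SD, n = 4), an interval of -0.87 to 0.19, an adjusted p of 0.807 by limma and an exact sign-flip p of 0.375. Both arrays of replicate 2 gave the low ratio, -1.05 and -1.19, so the dye swap repeated it. Without replicate 2 the mean was -0.07, and under median centring it was -0.12.

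The other Synpo probes did not share that pattern. The second probe of the same transcript gave -0.39, -0.16, 0.00 and -0.07, with its lowest ratio in replicate 1. The probe of another transcript of the gene, which lay near the background, gave 0.00, 0.10, -0.11 and 0.04. The 12.17 of replicate 2 therefore rests on 1 of 3 Synpo probes.

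The transcription factors Foxc2 and Lmx1b differed by less than the spread between replicates. Foxc2 had levels of 13.59, 13.79, 13.40 and 13.28 in the RNA labelled mutant and 13.32, 13.74, 13.37 and 13.34 in the partner RNA labelled wild type. Replicate 2 was the highest under both labels, and the groups overlapped. The ratios were 0.27, 0.05, 0.03 and -0.05, with a mean of 0.07 ± 0.14 (SD, n = 4) and an adjusted p of 0.807 by limma. Foxc2 was the podocyte gene most moved by the normalization: centring each array on its median in place of the intensity-dependent loess curve gave 0.41. Its unadjusted p was then 0.0348 by limma, and it did not pass the adjusted threshold either.

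Lmx1b had levels of 8.98, 9.10, 8.73 and 8.77 in the RNA labelled mutant and 8.92, 9.19, 8.84 and 8.72 in the partner RNA labelled wild type. Replicate 2 was again highest under both labels. The ratios were 0.06, -0.09, -0.11 and 0.05, with a mean of -0.02 ± 0.09 (SD, n = 4), an interval of -0.19 to 0.14 and an adjusted p of 0.917 by limma. Of the 8 genes, Lmx1b had the smallest spread between replicates.

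**Figure D3:**
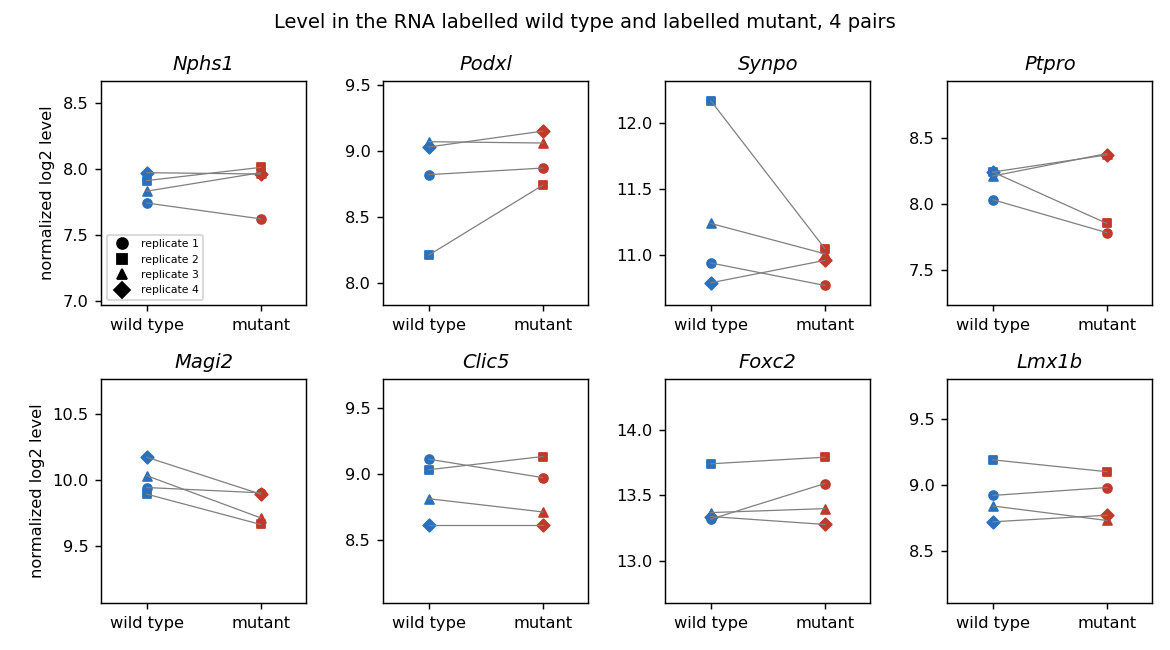
Normalized log2 level of each of the 8 podocyte genes (brightest probe) in the 4 RNAs labelled mutant and the 4 labelled wild type, with lines that join the RNAs of a replicate. The groups overlap for every gene, and the wild type RNA of replicate 2 is the highest of its group at 12.17 for Synpo and the lowest at 8.21 for Podxl.

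The sign of the ratio changed with the dye orientation for podocyte probes about as often as for the array as a whole. The 2 arrays of a replicate hold the same RNAs, so a ratio free of dye effects would repeat between them. Of the 13 podocyte probes, 8 had loess means of opposite sign in the 2 orientations, against 55.9% of all probes, and 6 had scanner means of opposite sign, against 42.2% of all probes. The largest gaps were those of the brightest Synpo probe, -0.04 with the labelled mutant in Cy5 and -0.63 with it in Cy3, and of the dimmer Podxl probe, -0.47 and 0.08. On the same loess scale Nphs1 had 0.20 and -0.14, Foxc2 -0.12 and 0.27, and Lmx1b -0.19 and 0.15. The mean over both orientations, used for each replicate above, cancels a constant dye effect.

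**Figure D4:**
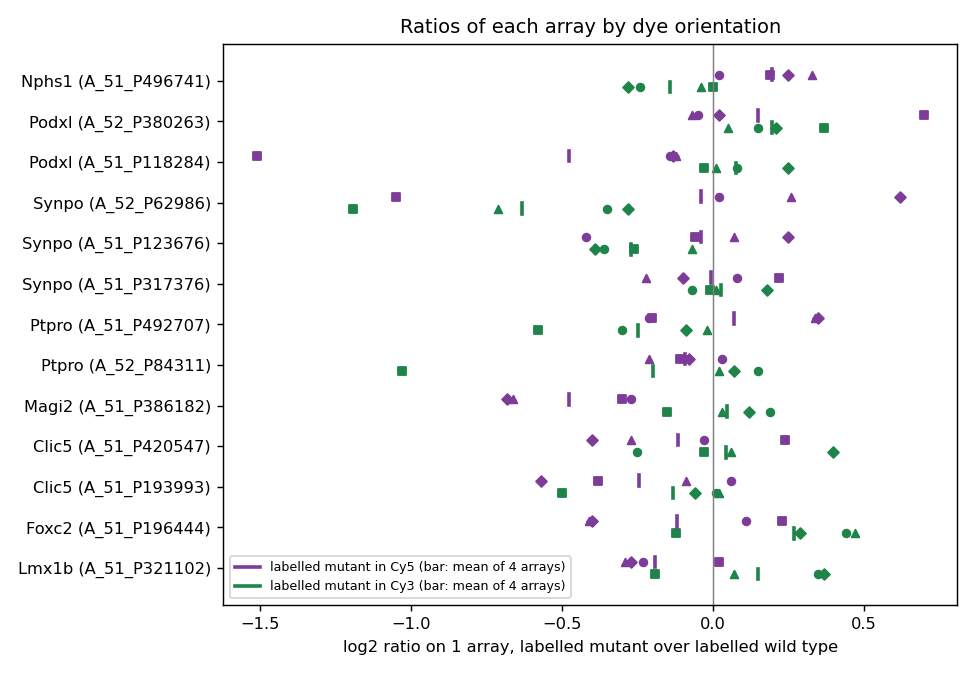
Loess log2 ratio of labelled mutant over labelled wild type on each array (x axis), with a row for each podocyte probe. Colours give the dye of the labelled mutant, and bars the mean of n = 4 arrays in each orientation. For 8 of the 13 probes the bars lie on opposite sides of 0. Magi2 is among them, at -0.48 with the labelled mutant in Cy5 and 0.05 with it in Cy3.

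Further genes known from podocytes were read from lists grouped by role. Whole kidney RNA does not show which cells gave the signal of these genes either, so their ratios are not those of podocytes alone. Of 47 further podocyte genes in 5 lists, 45 were measured, 24 had a mean above 0 and 21 a mean below it, around a median of 0.02. Over all probes, 45.4% lay above 0 and 54.6% below. None passed the adjusted threshold in either direction. At an unadjusted p under 0.05, 1 was higher and 5 were lower, where 3.09% of all probes were higher and 2.84% lower. This balance turned with the normalization: under median centring 33 of the 45 lay above 0, where 46.2% of all probes did. At an unadjusted p under 0.05 by limma, 11 were then higher and 0 lower, where 8.1% of all probes were higher and 1.56% lower. None passed the adjusted threshold under median centring either.

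Among 10 other slit diaphragm genes, 8 lay above 0, with a median of 0.05, and under median centring 6 did, with a median of 0.16. Nck2, an adaptor that links nephrin to actin, had a ratio of 0.17 ± 0.09 (SD, n = 4) with an unadjusted p of 0.0435 by limma. Tjp1, the junction protein ZO-1, had 0.35 ± 0.51, and its 2 probes ranged from -0.14 to 0.35. Among 11 foot process cytoskeleton genes, 8 lay above 0 and none had an unadjusted p under 0.05 by limma, with a median of 0.02. Under median centring 10 of the 11 lay above 0, where 46.2% of all probes did, and the median was 0.27. Of the 11, 3 then had an unadjusted p under 0.05 by limma, where 8.1% of all probes were higher and 1.56% lower. Arhgap24, a GTPase-activating protein, had 0.27 ± 0.30, and Myo1e, an unconventional myosin, had -0.39 ± 0.70. The 3 probes of Myo1e ranged from -0.39 to 0.02.

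The other podocyte transcription factors included the lowest unadjusted p of the further podocyte genes. Wt1, the zinc finger factor needed for kidney formation and for podocytes, had ratios of -0.34, -0.37, -0.36 and -0.14, with a mean of -0.30 ± 0.11 (SD, n = 4), an unadjusted p of 0.00627 and an adjusted p of 0.607 by limma. Its levels did not overlap between the labels, with the labelled mutant below, as for 0.795% of all probes. Of the 45 further podocyte genes measured, 2 had levels without overlap, Wt1 and Cdkn1c, both with the labelled mutant below. Median centring turned the mean of Wt1 to 0.02. Of the 6 factors on this list, 2 lay above 0 and 4 below, and their median of -0.04 became 0.22 under median centring.

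None of the surface and signalling genes or the basement membrane genes passed the adjusted threshold. Of 9 surface and signalling genes, 7 lay below 0, with a median of -0.16 that became 0.07 under median centring. Cdkn1c, the cell cycle inhibitor p57 that podocytes keep as they leave the cycle, had -0.41 ± 0.22 (SD, n = 4) with an unadjusted p of 0.00729 and an adjusted p of 0.609 by limma. Sulf1, a sulfatase of heparan sulfate, had -0.22 ± 0.16. Under median centring Cdkn1c was at 0.08 and Sulf1 at 0.01. Of 9 genes of the glomerular basement membrane and its receptors, 5 lay below 0, near the 54.6% of all probes, with a median of -0.08 that became 0.15 under median centring. Agrn (agrin), a heparan sulfate proteoglycan of that membrane, had -0.24 ± 0.20 and 0.18 under median centring. Lamb2, a laminin chain of that membrane, had -0.24 ± 0.21.

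Markers of the neighbouring cells were read by the same test, and none passed the adjusted threshold in any list. For the counts that follow, 45.4% of all probes lay above 0 and 54.6% below. Of 10 genes of the renal vesicle and early nephron, from which podocytes form, 8 lay above 0, with a median of 0.17 (0.33 under median centring). At an unadjusted p under 0.05 by limma, 5 of the 10 were higher, where 3.09% of all probes were. The lists were chosen with earlier results of these data known, so such counts beside that share are no test of a list. Hes5, a Notch target, had 0.66 ± 0.40 (SD, n = 4), and Wnt4, the signal for nephron formation, had 0.34 ± 0.18, with unadjusted p of 0.00721 and 0.00882 by limma. Of 10 nephron progenitor genes, 9 lay below 0, with a median of -0.09 that became 0.11 under median centring. Dapl1 had 0.24 ± 0.03 and Six2, which holds progenitors undifferentiated, -0.14 ± 0.08. The endothelial list had a median of 0.03, with Tek at 0.25 ± 0.23 and Kdr at -0.19 ± 0.14. Under median centring its median was 0.18 and all 10 genes lay above 0, where 46.2% of all probes did. The mesangial and stromal list had a median of -0.09 (0.15 under median centring), with Meis1 at -0.22 ± 0.20 and Des at -0.25 ± 0.37. Six2 and Kdr changed sign under median centring, to 0.04 and 0.08. The 2 probes of Meis1 ranged from -0.71 to -0.22.

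Epithelial markers of the bud had the largest ratios among these lists. The ureteric bud list had 9 of 12 genes above 0, where 45.4% of all probes were, and a median of 0.52 (0.72 under median centring). At an unadjusted p under 0.05 by limma, 8 of the 12 were higher, where 3.09% of all probes were. This list was chosen with earlier results of these data known, so its count beside that share is no test of the bud genes. Tfcp2l1 was at 0.95 ± 0.15 and Elf5 at 0.83 ± 0.17 (SD, n = 4). The 3 probes of Tfcp2l1 ranged from 0.07 to 0.95. In the mesothelial list, Msln was at 0.54 ± 0.11 and Krt19, which bud epithelium also makes, at 0.59 ± 0.31, while the list's median was 0.03 (-0.11 under median centring). Beside these, the podocyte genes had a median of -0.03 and a highest ratio of 0.17. Differences in the share of cell types between the RNAs were not tested.

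**Figure D5:**
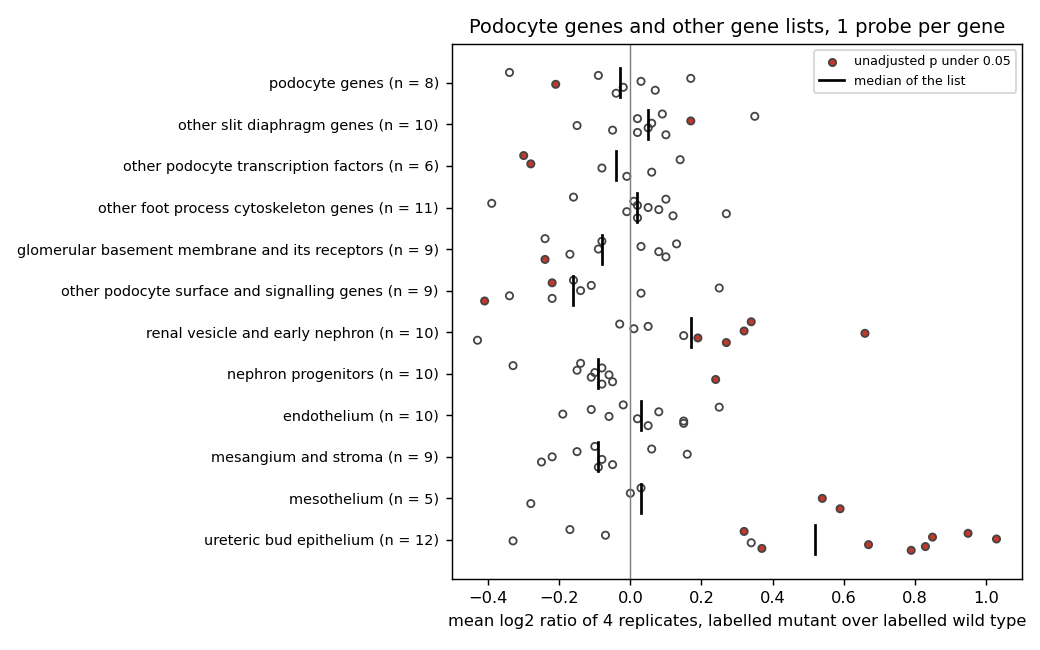
Log2 ratios of labelled mutant over labelled wild type for the 8 podocyte genes and 11 other gene lists, with 1 point for each gene (filled where the unadjusted p is under 0.05) and a bar at each list's median. The podocyte genes have a median of -0.03, the ureteric bud epithelium 0.52, and no gene on any list passed the adjusted threshold.

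None of the 8 podocyte genes is among the 496 entries of the authors' deposited table. Of the further podocyte genes, that table holds Arhgap24 at -0.539, Myo1e at 0.611 and a Col4a4 feature at -0.796 on its log2 scale. These entries were not matched to the probes that stand for the genes above, so the values are not set side by side.

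The gene whose level followed Nphs1 most closely over the 8 RNAs was not a podocyte gene. Pearson's r, taken over the 4 RNAs of each label as a description of 17045 named genes, was 0.992 for Olfr911-ps1, an olfactory receptor pseudogene, 0.973 for Dzip1l and 0.966 for Olfr1228, an olfactory receptor. These 8 RNAs come in pairs that share their arrays. Olfr911-ps1 and Olfr1228 each carried the flag of a signal well above background on 15 of 16 spots. Nphs1 had the same count, so the flag does not set it apart from these olfactory genes. Among the podocyte genes, r with Nphs1 was 0.555 for Ptpro, 0.192 for Synpo, 0.069 for Foxc2, 0.045 for Podxl, -0.183 for Lmx1b, -0.234 for Magi2 and -0.379 for Clic5. Of the 7, 4 had a positive and 3 a negative r with nephrin.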

How the data were processed

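Per the file headers, the authors read the spots with Agilent's Feature Extraction, version 10.5.1.1. Deposited intensity values are each spot's median signal, local background median and processed signal. The deposited log10 ratio is red over green, after the scanner software's background and dye correction. The deposited 0 or 1 flags mark spots well above background, saturated (none was) or outlying. The authors' deposited log2 ratios belong to a selected list with no stated direction.

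Median signals were corrected with limma's normexp (offset 50), in place of the planned mean signals, and normalized within arrays by loess. Control and outlier spots had weight 0. The 2 dye orientations of a replicate, which hold the same 2 RNAs per the labels, were averaged, and n = 4 ratios were tested against 0 with limma 3.58.1 (R 4.3.3), two-sided, with Benjamini-Hochberg adjustment over the 39520 probes flagged as above background in either channel on 4 or more arrays. Levels came from loess and Aquantile. Single values had an exact sign-flip test. Probes were named through RefSeq (GRCm38.p6), whose build differs from that of the array design, so no probe positions are given. The fit was tested on simulated data. The number of arrays limits the precision.

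Text names all 8 podocyte genes, Hdac2, the 2 genes of smallest p in each other list and the 3 genes most like Nphs1, except 1 list gene that is not reported here; Mia and the Col4a4 feature were named after their values were seen. The members and lists were chosen with earlier results of these data known. Alternatives covered background, normalization, filters, dye, slide, weights, the replicate block, the probe rule and leaving out each replicate.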

Additional observations from a re-analysis of the deposited data

Results flagged for a closer look

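In 4 of 39 groups of 4 podocyte values, the highest or lowest value stood apart from the others by Dixon's criterion, where chance alone gives about 1 in 20. Over all probes the same held for 11.4% of the groups of ratios, 5.48% of the groups of labelled mutant levels and 9.46% of those of labelled wild type levels. A probe's ratios are differences of its levels, so the 39 groups are not independent. Nphs1 was lowest in the RNA labelled mutant of replicate 1, at a level of 7.62 against 7.96 to 8.01 in the other 3. The dimmer Podxl probe had its lowest ratio in replicate 2, at -0.77 against -0.06 to 0.06. Ptpro was lowest in the RNA labelled wild type of replicate 1, at 8.03 against 8.21 to 8.24. Foxc2 was highest in the RNA labelled wild type of replicate 2, at 13.74 against 13.32 to 13.37. The causes were not tested.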

How the results depend on the processing

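No podocyte gene passed the adjusted threshold in any of 127 fits over genes and settings (limma; smallest adjusted p 0.149, Synpo with the labelled mutant in Cy3 alone, at -0.63). Over those fits 19 changed sign; Podxl stayed above 0 and Synpo below 0 in all 16. Over all probes, 1 passed at first, 5 with no background subtraction, 7 with the scanner's ratio, 17 with median centring, 92 with the replicate block (70 higher and 22 lower), 85 with array weights, 3 within slide 2, and 0 within slide 1, with the labelled mutant in Cy3 alone or with 1 probe per gene. Leaving out each replicate gave 0 to 4, with 4 without replicate 2. The pairing of arrays is by shared RNA. With a consensus correlation of -0.008, the block counts the 8 arrays as nearly independent although they hold 4 pairs of RNAs, so its 92 calls rest on more than 4 values each. The block brought no podocyte gene past the adjusted threshold and moved the unadjusted p of Magi2 from 0.0292 to 0.0752, while Msln, Tfcp2l1 and Elf5 passed under it. The podocyte median of -0.03 became 0.04 with the scanner's ratio, -0.08 in Cy5 alone and 0.05 in Cy3 alone, and -0.05 to 0 without each replicate.

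Signs turned as follows. With no background subtraction, Nphs1 was at 0 and Lmx1b at 0.01. With the scanner's ratio, Clic5 and Lmx1b were both at 0.05. With median centring, Nphs1 was at -0.07, Wt1 0.02, Cdkn1c 0.08, Sulf1 0.01, Agrn 0.18, Kdr 0.08 and Six2 0.04. In Cy3 alone, Nphs1 was at -0.14, Magi2 0.05, Clic5 0.05 and Lmx1b 0.15, and in Cy5 alone Ptpro was at 0.07, Foxc2 -0.12 and Six2 0.05. Ptpro was at 0.05 with array weights, where replicate 2 had a weight of 0.25, and at 0.15 within slide 2, with Foxc2 and Tjp1 both at -0.01 there. Nphs1 was at -0.01 within slide 1 and without replicate 3. Leaving out each replicate gave -0.17 to 0.01 for Ptpro (0.01 without replicate 2), and Lmx1b was at 0 without replicate 2 and 0.01 without replicate 3. The causes were not tested. The strict filter removed Nphs1 and Dapl1. The low signal over background of Nphs1 and of the dimmer probes limits what their ratios can show.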
